A study of Mus musculus with 22 samples.

Results

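The transcriptomes of 2 mouse embryonic stem (ES) cell lines were compared with those of 3 mouse trophoblast stem (TS) cell lines, gene by gene and by function. The lines were taken from the sample titles, and they account for 10 of the 22 RNA-seq libraries of a study that also covers single embryos wild type, heterozygous or knockout for Nanog and 2 extraembryonic endoderm (XEN) lines. Every ES, TS and XEN line is labelled wild type for Nanog. ES line 1 is labelled female and ES line 2 male, TS lines 1 and 2 female and TS line 3 male, and both XEN lines male. The titles of the ES libraries give a serum-free culture, and those of the TS libraries name no medium, so that cell type and culture medium cannot be told apart here. Each line was sequenced as 2 technical replicates from 2 passages, which were summed, so a line is the replicate (n = 2 against n = 3) and p-values measure the spread between these lines.

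ES cells are grown from the epiblast of the blastocyst and are kept in self-renewal by a circuit around Oct4, Sox2 and Nanog with support from LIF and inhibition of differentiation signals. TS cells are grown from the trophectoderm, the outer epithelium that builds the fetal part of the placenta, and depend on FGF4 and on factors such as Cdx2, Eomes and Elf5. In the blastocyst the inner cells secrete Fgf4 and the neighbouring trophectoderm receives it through Fgfr2, and the choice between the lineages runs through polarity, Hippo signalling and Cdx2.

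The 4 ES libraries held 8201801 to 9551415 counts and the 6 TS libraries 9966333 to 16486987. Pearson's r of log2 CPM (CPM, counts per 1000000 counts of the scaled library) was taken across the 14687 genes tested, which are not independent replicates. Between the 2 passages of a line, as single libraries, it was 0.9704 to 0.9797. Between single libraries of different lines it was 0.9568 to 0.9702 within ES, 0.9284 to 0.9654 within TS and 0.7108 to 0.7801 between ES and TS. With the passages summed, r was 0.981 between the ES lines and 0.9488 to 0.9753 between TS lines. It was then 0.7373 to 0.7919 between an ES and a TS line. These summed values are not comparable with those of single libraries. TS line 3 stood furthest from the other TS lines. Of the 5820 genes at a mean of at least 5 on the log2 CPM scale, 12 were at least 4-fold higher there than in both others. Another 3 were at least 4-fold lower. The sex-linked values of TS line 3 also sat between the groups. Xist was at 55.8 CPM in TS line 3, labelled male, against 268 and 420 CPM in the TS lines labelled female, and the Y-linked Eif2s3y had 83 and 142 counts in its libraries against 660 and 703 in those of ES line 2, labelled male, and 0 to 8 in the libraries of lines labelled female. Kdm5d, also Y-linked, had 4 and 2 counts in ES line 2 and 0 and 1 in TS line 3, against 73 to 296 in the libraries of the XEN lines, which are labelled male.

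Of 21881 genes in the table, 14687 passed the filter on low counts and 6063 (41.3%) differed between ES and TS lines at an adjusted p under 0.05 in edgeR's quasi-likelihood test. Of these, 2934 (20.0% of genes tested) were higher in the ES lines and 3129 (21.3%) in the TS lines. At least 4-fold differences were called for 1373 genes (9.35%) toward ES and 1568 (10.7%) toward TS, the values of the lines did not overlap for 70.5% of genes tested, and the median log2 fold change of all genes tested was -0.02. In what follows a log2 fold change is ES minus TS with its standard error after ±, followed by the adjusted p. Levels are CPM of ES lines 1 and 2 against TS lines 1 to 3, in that order. Where leaving out 1 line moved a printed log2 fold change by over 1.5-fold, its value without that line follows, unless a group was then left with 0 counts. Leaving out ES line 1 or 2, where the lone remaining ES line is assumed to vary like the other groups, lowered the calls to 2429 and 2827. For each gene list, counts of members higher in ES and in TS without an ES, TS or XEN line are therefore given in parentheses where either moved by over 1.5 times. Of the 1087 genes in 41 lists, 1014 passed the filter, which a gene can pass through 1 group alone. In any list, a member near 0 in 1 group that passed through the other could be called toward that other group only. The lists are described by counts and medians and were given no test of their own. Their counts are to be read beside the 20.0% and 21.3% over all genes tested.

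The 4 genes used to check the labels did not overlap between the groups. Pou5f1 (Oct4), the POU-domain factor at the centre of pluripotency, was at 1551 and 1428 against 3.65, 5.78 and 4.82 CPM (8.30 ± 0.26, adjusted p = 1.21e-05), a 314-fold difference. Dppa5a, an RNA-binding protein of pluripotent cells, was at 1671 and 1838 against 2.79, 3.16 and 2.97 CPM (9.21 ± 0.20, adjusted p = 2.86e-06). Hand1, the basic helix-loop-helix factor of trophoblast giant cells, was at 1.28 and 0.43 against 839, 1183 and 1761 CPM (-10.54 ± 0.65, adjusted p = 9.81e-05, and -11.51 without ES line 1 and -9.94 without ES line 2). Elf5, an ETS factor kept on by hypomethylation in trophoblast, had 3 counts in the ES lines together against 18060 in the TS lines, 2956-fold (95% counting interval 1011 to 14333) higher in TS on the CPM scale. It stood at 266, 193 and 189 CPM in the TS lines. In bulk libraries, fewer cells of a type and less RNA per cell cannot be told apart, so the low Pou5f1 in TS lines and the low Hand1 in ES lines give no count of cells.

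**Figure D1:**
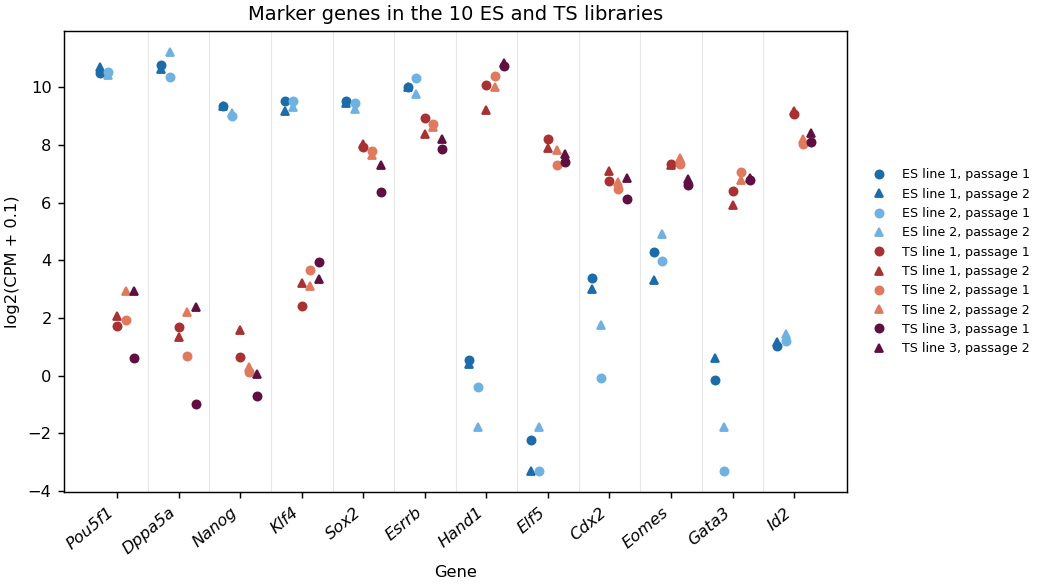
Marker genes in the 10 libraries. The vertical axis is log2(CPM + 0.1), each column of points is a line, and circles and triangles are its passages. Pou5f1, Dppa5a, Nanog and Klf4 sit high in all 4 ES libraries, Hand1, Elf5, Gata3 and Id2 in all 6 TS libraries, while Sox2 and Esrrb stand in both groups with the ES libraries higher.

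Among genes with a call, a mean log2 CPM of at least 5 over the 5 lines and no overlap between lines, the 10 largest log2 fold changes toward ES were those of Dppa5a, Pou5f1, Rex2, Klf4, Spp1, Apoe, Tet1, Ly75, Zfp42 and Pigp. Rex2, a zinc finger gene, was at 1106 and 1024 against 6.38, 4.84 and 3.85 CPM (7.72 ± 0.30, adjusted p = 1.70e-05). Apoe, the lipid carrier, was at 612 and 658 against 24.4, 27.7 and 59.2 CPM (4.10 ± 0.77, adjusted p = 0.00588). Ly75, an endocytic receptor, was at 198 and 159.5 against 16.4, 11.2 and 9.92 CPM (3.83 ± 0.41, adjusted p = 7.12e-04). These 3 genes stand outside the core pluripotency circuit and were high in both ES lines. That limit on the mean leaves out genes near 0 in the other group, such as Nanog, Fgf4 or Tdh toward ES and Elf5, Wnt7b or Mmp9 toward TS. Toward TS the 10 largest within the limit were those of Igf2, Hand1, Tinagl1, Bmp1, S100a6, Gsn, Id2, Krt19, Rhox6 and Rhox9. Igf2, the imprinted placental growth factor, was at 4.01 and 3.25 against 5295, 3921 and 7059 CPM (-10.55 ± 0.85, adjusted p = 2.61e-04), a 1495-fold difference. Tinagl1, a secreted matrix protein, was at 2.56 and 2.87 against 399, 593 and 729 CPM (-7.72 ± 0.45, adjusted p = 8.21e-05). Gsn, the actin-severing gelsolin, was at 1.23 and 2.58 against 233, 337 and 579 CPM (-7.64 ± 0.60, adjusted p = 2.21e-04, and -8.28 without ES line 2). S100a6, a calcium-binding protein, was at 1.66 and 1.43 against 296, 284 and 359.5 CPM (-7.66 ± 0.79, adjusted p = 6.03e-04). All of these were high in each TS line and near the bottom of the scale in both ES lines.

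**Figure D2:**
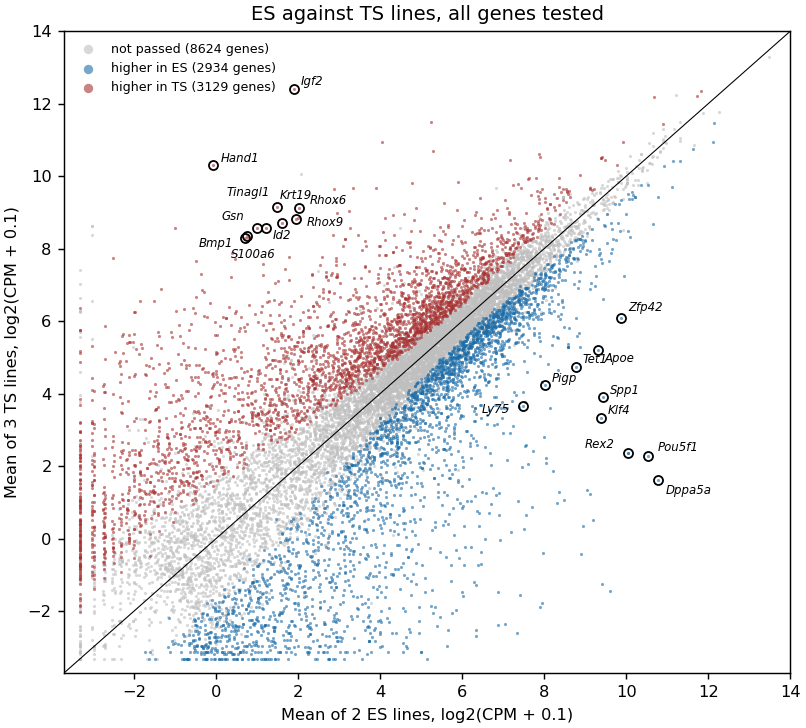
Every gene tested, as the mean over the 2 ES lines (horizontal) against the mean over the 3 TS lines (vertical), both as log2(CPM + 0.1). Blue and red points are the 2934 and 3129 genes called higher in ES and in TS, grey points the 8624 that did not pass, circles the 10 leading genes each way, and the line marks equal means.

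Of the 32 pluripotency and ES cell genes tested, 26 were higher in the ES lines, 1 was higher in the TS lines and 5 did not pass (21 and 0 without ES line 1, 27 and 0 without TS line 1, 24 and 0 without TS line 2, 25 and 0 without TS line 3), with a median log2 fold change of 2.75. The core factors did not move alike. Nanog, the homeodomain factor of the naive epiblast, was at 647 and 532 against 2.18, 1.07 and 0.742 CPM (8.75 ± 0.45, adjusted p = 5.10e-05). Sox2, the partner of Oct4, was at 713 and 648 against 253, 209 and 124 CPM (1.80 ± 0.31, adjusted p = 0.00435). Esrrb, an orphan nuclear receptor, was at 1022 and 1085 against 409, 406 and 264 CPM (1.55 ± 0.23, adjusted p = 0.00249). Sox2 and Esrrb, which serve TS cells as well, thus kept at least 124 CPM in each TS line while Nanog stood at 2.18 CPM or less. Klf4, a zinc finger factor under LIF control, was at 653 and 684 against 7.13, 10.4 and 12.3 CPM (6.07 ± 0.26, adjusted p = 2.39e-05). Tfcp2l1, a LIF target, was at 1074 and 901 against 229, 126 and 104 CPM (2.69 ± 0.39, adjusted p = 0.00219). Zfp42 (Rex1), a marker of naive cells, was at 927 and 963 against 77.9, 73.4 and 51.7 CPM (3.80 ± 0.32, adjusted p = 3.10e-04). Fbxo15, an F-box gene long used to report pluripotency, was at 167 and 184 against 3.48, 4.59 and 3.43 CPM (5.52 ± 0.21, adjusted p = 1.70e-05). Members without a call include Lin28a, an inhibitor of let-7 maturation, at 158 and 234 against 256, 202 and 190.4 CPM (adjusted p = 0.638). Dppa4, a chromatin protein, was at 87 and 108 against 82.2, 63.1 and 45 CPM (adjusted p = 0.153). Utf1, a chromatin-bound transcription factor of ES cells, was the 1 member higher in TS, at 127 and 203 against 297, 273 and 291 CPM (-0.80 ± 0.25, adjusted p = 0.04), and this call was lost without ES line 1 (adjusted p = 0.27), TS line 1 (adjusted p = 0.0804), TS line 2 (adjusted p = 0.0739) or TS line 3 (adjusted p = 0.0536).

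Among 22 regulators and markers of trophoblast stem cells, 17 were higher in the TS lines and 5 did not pass (1 and 17 without TS line 3), with a median log2 fold change of -3.11. Cdx2, the caudal homeodomain factor of the trophectoderm, was at 9.08 and 2.05 against 121, 97 and 94.1 CPM (-4.23 ± 0.97, adjusted p = 0.0123, and -5.67 without ES line 1 and -3.52 without ES line 2). Eomes, a T-box factor, was at 14.4 and 22.7 against 161, 175 and 106 CPM (-2.99 ± 0.55, adjusted p = 0.00541). Tfap2c, an AP-2 factor, was at 43.8 and 35.1 against 289.6, 277 and 433 CPM (-3.08 ± 0.32, adjusted p = 6.39e-04). Gata3, a zinc finger factor acting in parallel with Cdx2, was at 1.12 and 0.0955 against 72.7, 121 and 112 CPM (-7.42 ± 0.78, adjusted p = 6.40e-04, and -10.00 without ES line 1 and -6.50 without ES line 2). Msx2, a homeobox target of BMP signalling, was at 0.908 and 2.15 against 56.9, 47.2 and 54.9 CPM (-5.10 ± 0.44, adjusted p = 3.15e-04, and -5.86 without ES line 2). Each of these 5 was higher in every TS line than in either ES line, but Eomes and Tfap2c kept 14.4 to 43.8 CPM in the ES lines, where Elf5, Gata3 and Msx2 were near 0. The call of Cdx2, in which the ES lines stood at 9.08 and 2.05 CPM, was lost without ES line 2 (adjusted p = 0.0721), while that of Eomes was lost without ES line 1 (adjusted p = 0.0582). Tfap2a was at 8.6 and 9.17 against 2.61, 2.75 and 15.3 CPM (adjusted p = 0.728). Elf3, an epithelial ETS factor, was at 61.2 and 53.5 against 32.7, 25.7 and 134 CPM (adjusted p = 0.885), and neither passed.

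Genes of differentiated trophoblast and placenta fell into those high in all TS lines and those high in TS line 3. Of 39 members in the table, 27 passed the filter on low counts. Of these, 14 were higher in the TS lines and 13 did not pass, with a median log2 fold change of -7.14, or -5.65 with the 6 members at 0 in the ES lines set at the bound that 3 counts over the group allow. These 6, and members such as Plac1 and Prl2c2 with 2 and 1 counts in ES, could not pass the filter through the ES lines. Their direction was open to TS only, and the median includes them. Without TS line 3 the count higher in TS was 16 and the median -5.70. Rhox4b, a homeobox gene of the X-linked Rhox cluster, was at 0.267 and 0 against 39.2, 40.4 and 50.0 CPM (-8.35 ± 0.80, adjusted p = 4.69e-04, and -7.31 without ES line 2). Rhox6, from the same cluster of near-identical genes whose counts could be split, was at 5.24 and 2.67 against 225, 330.0 and 1119 CPM (-7.14 ± 1.00, adjusted p = 0.00189, and -6.14 without TS line 3). Esx1, an X-linked placental homeobox gene, was at 1.39 and 2.72 against 43.5, 53 and 133 CPM (-5.21 ± 0.65, adjusted p = 0.0012, and -4.55 without TS line 3). Mdfi, an inhibitor of basic helix-loop-helix factors, was at 4.43 and 5.35 against 41.7, 33.8 and 47 CPM (-3.06 ± 0.26, adjusted p = 3.15e-04). These 4 were high in each TS line. Prl3d1, placental lactogen of trophoblast giant cells, was at 0 and 0 against 0.0287, 0.984 and 513 CPM and did not pass (adjusted p = 0.11). It had 1919 and 9136 counts in technical replicates 1 and 2 of TS line 3 and 0 to 15 counts in every other ES or TS library. Other genes of giant cells and spongiotrophoblast did likewise without passing: Prl2c2 was at 0 and 0.0478 against 0.632, 3.12 and 998 CPM (adjusted p = 0.0626). Prl3d2 was at 0 and 0 against 0, 0.41 and 228 CPM (adjusted p = 0.119). Prl7a1 was at 0 and 0 against 0.0862, 1.23 and 139.9 CPM (adjusted p = 0.131). The Prl genes belong to a large family of similar sequences, and how reads shared by its members were counted is not given. Gcm1, the switch of syncytiotrophoblast, had 0 counts in both ES lines and 1.49, 0.533 and 1.58 CPM in the TS lines, at least 16.2-fold higher in TS.

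**Figure D3:**
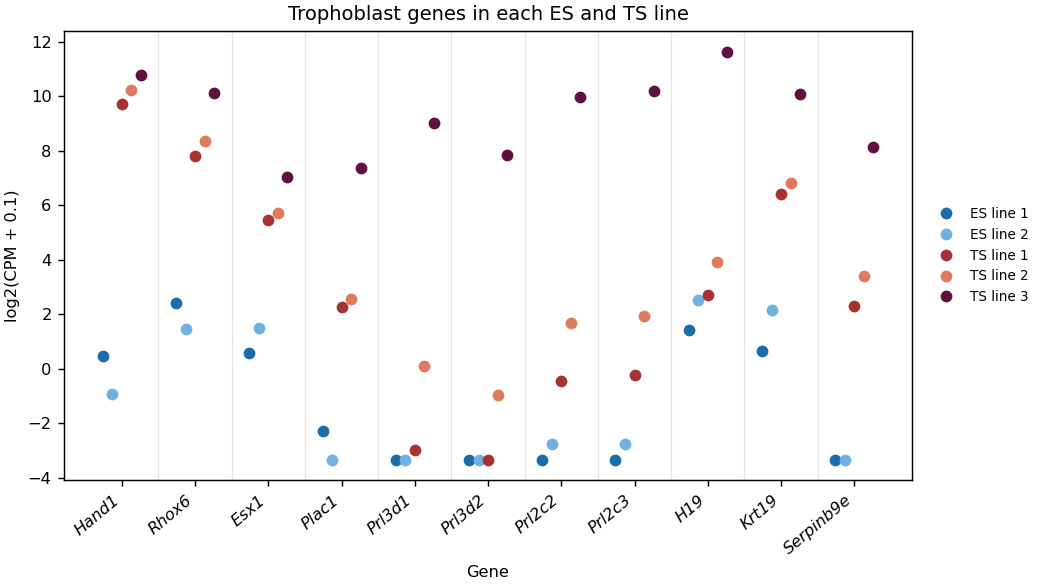
Trophoblast genes by line. The vertical axis is log2(CPM + 0.1) and each point is a line with its passages summed. Hand1, Rhox6 and Esx1 sit high in all 3 TS lines, whereas Prl3d1, Prl3d2, Prl2c2, Prl2c3 and H19 are high in TS line 3, as in Prl3d1 at 513 CPM against 0.984 CPM or less in the other lines.

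Epithelial genes leaned to TS, with a summed 2178 and 2372 CPM in the ES lines and 8294 to 16210 CPM in the TS lines. Of 41 keratin, junction, desmosome and polarity genes tested, 2 were higher in the ES lines, 27 were higher in the TS lines and 12 did not pass (1 and 16 without ES line 1, 1 and 18 without ES line 2, 1 and 24 without TS line 1, 1 and 25 without TS line 2), with a median log2 fold change of -2.21. Cldn3, a tight junction claudin, was at 9.62 and 5.35 against 235, 123 and 280.4 CPM (-4.83 ± 0.47, adjusted p = 4.91e-04). F11r, the junctional adhesion molecule JAM-A, was at 40.1 and 48.9 against 357, 227 and 305 CPM (-2.74 ± 0.25, adjusted p = 3.82e-04). Pard6b, an apical polarity scaffold, was at 19.8 and 23.8 against 153, 158 and 253 CPM (-3.11 ± 0.31, adjusted p = 5.57e-04). Perp, a desmosome protein that is also a p53 target, was at 10.1 and 7.26 against 379, 238 and 315 CPM (-5.16 ± 0.31, adjusted p = 9.60e-05). Krt19, a keratin of simple epithelium, was high in all TS lines and highest in TS line 3, at 1.5 and 4.39 against 84.5, 113 and 1069 CPM (-7.15 ± 2.32, adjusted p = 0.0465, and -8.13 without ES line 2 and -5.06 without TS line 3). The call of Krt19 was lost without ES line 1 (adjusted p = 0.237), ES line 2 (adjusted p = 0.18) or TS line 3 (adjusted p = 0.0615). Krt42, another keratin, went the other way at 8.12 and 9.51 against 0.373, 0.451 and 0.464 CPM (4.35 ± 0.75, adjusted p = 0.00419), as did Prkci, the atypical protein kinase C of the apical complex, at 209 and 233 against 115, 110.4 and 151 CPM (0.82 ± 0.23, adjusted p = 0.0264). The call of Prkci was lost without ES line 1 (adjusted p = 0.106), ES line 2 (adjusted p = 0.146), TS line 1 (adjusted p = 0.0701) or TS line 2 (adjusted p = 0.074). Of the 24 adhesion and epithelial-mesenchymal genes tested, 11 were higher in the TS lines and 13 did not pass (0 and 4 without ES line 1, 0 and 6 without ES line 2, 4 and 8 without TS line 2, 1 and 11 without XEN line 1 or XEN line 2), with a median log2 fold change of -0.76. Cdh1 (E-cadherin), which both cell types need, was at 318 and 358 against 727, 775 and 790.3 CPM (-1.18 ± 0.17, adjusted p = 0.00231). Cdh3 (P-cadherin) was at 6.14 and 11.1 against 100.2, 129 and 343 CPM (-4.47 ± 0.66, adjusted p = 0.00226, and -3.73 without TS line 3). Grhl2, a grainyhead factor of epithelia, was at 9.46 and 4.01 against 32, 33.9 and 34.5 CPM (-2.31 ± 0.41, adjusted p = 0.00474, and -3.07 without ES line 1). Vim, the mesenchymal intermediate filament, was at 311 and 304 against 60.8, 226 and 77.9 CPM (adjusted p = 0.0681) and Fn1 (fibronectin) at 946 and 995 against 272, 249 and 568 CPM (adjusted p = 0.102), both without a call.

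Of 15 integrins and osteopontin tested, 1 was higher in the ES lines, 9 were higher in the TS lines and 5 did not pass, with a median log2 fold change of -2.27. The 1 higher in ES was Spp1 (osteopontin), an integrin ligand, at 782 and 600.0 against 8.79, 29.9 and 5.75 CPM (5.55 ± 0.73, adjusted p = 0.00149, and 6.58 without TS line 2). Among its receptors, Itgb3 was at 2.08 and 1.58 against 42.7, 60.3 and 115 CPM (-5.31 ± 0.54, adjusted p = 5.90e-04). The laminin receptor subunits Itga3 and Itga7 were at 15.2 and 19.5 against 186, 216 and 279 CPM (-3.71 ± 0.41, adjusted p = 7.56e-04) and 2.03 and 2.58 against 109.6, 117 and 105 CPM (-5.58 ± 0.67, adjusted p = 0.00109). Itgb1, the shared beta chain, was at 153 and 138 against 379, 441 and 412 CPM (-1.50 ± 0.16, adjusted p = 6.60e-04). The secreted ligand was thus the ES gene and the receptor chains with a call were TS genes. The 18 basement membrane genes tested split by chain: 2 were higher in the ES lines, 9 were higher in the TS lines and 7 did not pass, with a median log2 fold change of -1.39. Lama1, the alpha chain of laminin-111, was at 149.6 and 151 against 8.22, 10.6 and 6.72 CPM (4.14 ± 0.22, adjusted p = 5.10e-05). Nid2, a nidogen linker, was at 432 and 499.9 against 43.2, 37.8 and 36.9 CPM (3.57 ± 0.22, adjusted p = 9.81e-05). Lamb1, a beta chain, was at 17 and 28.8 against 248, 265 and 232 CPM (-3.44 ± 0.27, adjusted p = 2.20e-04). The collagen IV genes Col4a1 and Col4a2, which share a promoter region, were at 15.2 and 14.5 against 577, 853 and 1023 CPM (-5.78 ± 0.34, adjusted p = 8.21e-05) and 8.44 and 6.5 against 383, 588 and 906 CPM (-6.39 ± 0.46, adjusted p = 1.79e-04). Sparc, a collagen-binding matrix protein, was at 169 and 120.3 against 1414, 1580.2 and 1157 CPM (-3.26 ± 0.23, adjusted p = 1.73e-04). The gamma chain Lamc1 was at 401 and 309 against 386, 427 and 343 CPM without a call (adjusted p = 0.623).

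**Figure D4:**
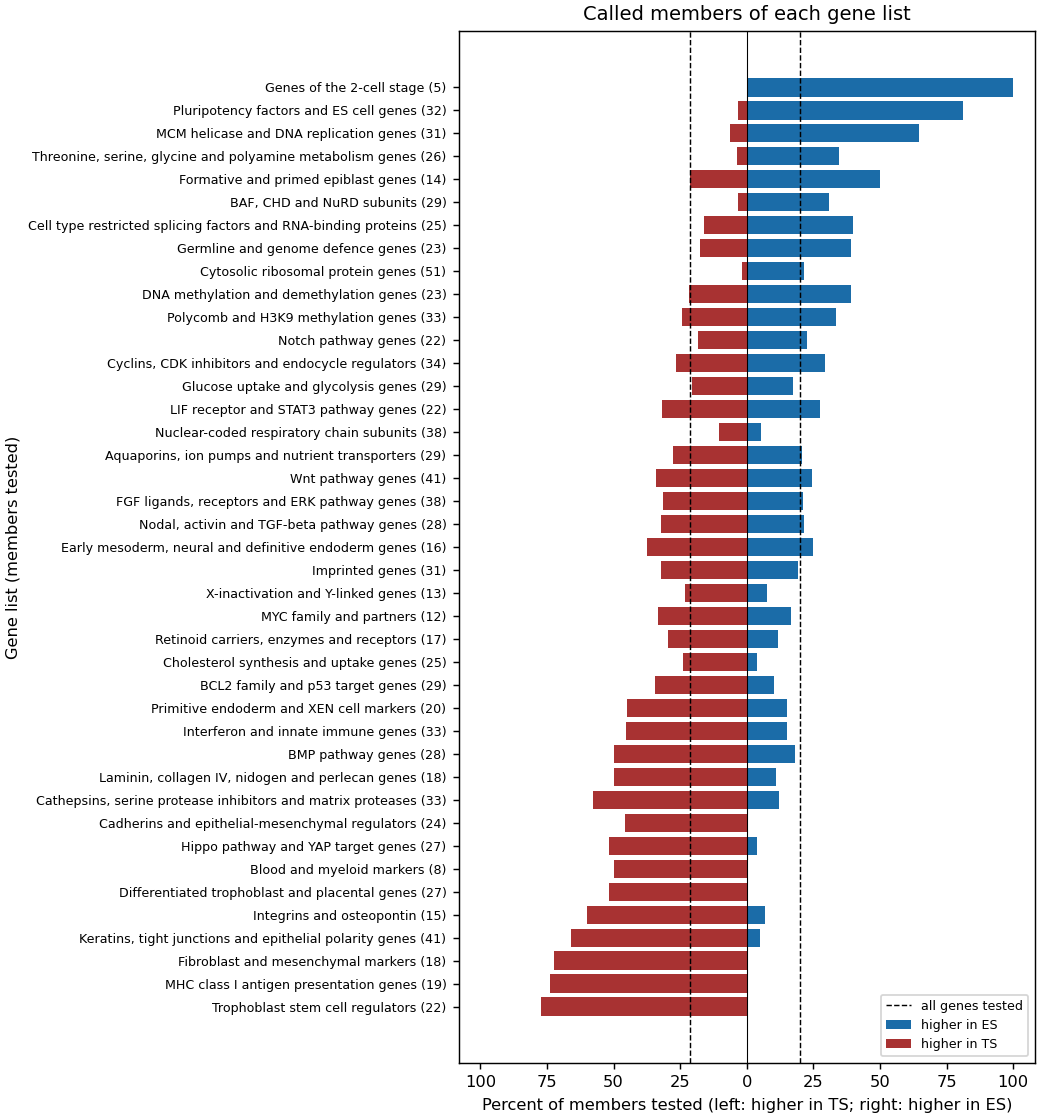
Share of each list's tested members called higher in ES (blue, right) and higher in TS (red, left), in percent, with the number tested after each name and broken lines at 20.0% and 21.3%, the shares over all genes tested. The lists at the top lean to ES and those at the bottom to TS.

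Markers of other cell types were measured as well. The summed CPM of the feeder-type fibroblast list was 62.8 and 64.6 in the ES lines and 156.9 to 404.5 in the TS lines, and of 18 members tested, 13 were higher in the TS lines and 5 did not pass (0 and 5 without ES line 1, 0 and 6 without ES line 2), with a median log2 fold change of -4.47 (-4.40 with the 4 members at 0 in ES at their bound). Col1a1, the main fibrillar collagen, was at 1.02 and 0.525 against 7.81, 40.4 and 24.5 CPM (-4.97 ± 1.00, adjusted p = 0.00743, and -4.39 without TS line 2). The call of Col1a1 was lost without ES line 1 (adjusted p = 0.0507) or ES line 2 (adjusted p = 0.064). Col6a1 was at 0.107 and 0.0955 against 2.01, 10.5 and 3.2 CPM (-5.62 ± 1.02, adjusted p = 0.00512, and -4.62 without TS line 2). Acta2, smooth muscle actin, was at 28.2 and 26.6 against 68.6, 93.2 and 138 CPM (-1.87 ± 0.34, adjusted p = 0.00488). Dcn, Col3a1, Postn, S100a4 and Prrx1 had 0 counts in both ES lines, and TS line 2 had the highest Col1a1 and Col6a1. The 4 tested members at 0 in ES could not pass the filter through the ES lines, and nor could Col6a1. Their direction was open to TS only, and the count and median of the list include them. The part of such cells in the TS differences was not tested. Of 8 blood and macrophage markers tested, 4 were higher in the TS lines and 4 did not pass (0 and 1 without ES line 1, 0 and 2 without ES line 2, 1 and 3 without TS line 2), with a median log2 fold change of -0.46. Csf1r, which trophoblast also expresses, was at 0.214 and 0.0478 against 11.4, 28.2 and 90.1 CPM (-8.35 ± 1.36, adjusted p = 0.00338, and -9.70 without ES line 1, -7.63 without ES line 2 and -7.23 without TS line 3). The summed CPM of the blood list did not follow these calls, at 629.4 and 400.5 in the ES lines against 230.7, 778.9 and 290.3 in the TS lines. Both ES lines were thus above TS lines 1 and 3. The leukocyte marker Ptprc had at most 1 count in any line. Lyz2, a macrophage enzyme, had 0 counts in ES and 0.977, 11.2 and 0.649 CPM in TS. It could not pass the filter through the ES lines, so its direction was open to TS only. The call of Lyz2 was lost without ES line 1 (adjusted p = 0.101) or ES line 2 (adjusted p = 0.0986). Of 20 primitive endoderm genes, 3 were higher in the ES lines, 9 were higher in the TS lines and 8 did not pass, with a median log2 fold change of -2.16 (-1.59 with Afp at its bound). Their levels were low: Gata6, the endoderm GATA factor, was at 0.374 and 0.43 against 3.3, 2.17 and 3.2 CPM (-2.83 ± 0.36, adjusted p = 0.00131). Sox17 was at 0.748 and 0.764 against 0.0575, 0.205 and 0.139 CPM (2.54 ± 0.41, adjusted p = 0.00318). Dab2, an endocytic adaptor, was at 1.07 and 1.24 against 12.6, 7.62 and 7.65 CPM (-3.00 ± 0.31, adjusted p = 5.94e-04). Hnf4a had 2 counts in the TS lines, 228-fold (95% counting interval 62.4 to 1895) lower than in ES, where it stood at 5.88 and 5.45 CPM.

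Genes of the primed epiblast did not move together. Of 14 tested, 7 were higher in the ES lines, 3 were higher in the TS lines and 4 did not pass, with a median log2 fold change of 2.08. Otx2, a homeodomain factor of the exit from naive pluripotency, was at 14.4 and 16.1 against 0.115, 0.164 and 0.0464 CPM (7.05 ± 0.62, adjusted p = 3.49e-04). Foxd3, a forkhead factor, was at 76.1 and 39.8 against 0.144, 0.328 and 0 CPM (8.46 ± 0.76, adjusted p = 3.82e-04, and 9.35 without TS line 2). Pou3f1 (Oct6), another gene of primed cells, was the reverse at 2.24 and 1.96 against 189.9, 209 and 179.7 CPM (-6.52 ± 0.38, adjusted p = 8.21e-05). Dnmt3b, a de novo DNA methyltransferase, was at 92.9 and 82.6 against 669, 378 and 321 CPM (-2.38 ± 0.44, adjusted p = 0.00565). The call of Dnmt3b was lost without ES line 2 (adjusted p = 0.0517). Of 16 germ layer genes, 4 were higher in the ES lines, 6 were higher in the TS lines and 6 did not pass (2 and 2 without ES line 1, 3 and 1 without ES line 2), with a median log2 fold change of 0.15. Sox11, a neural factor, was at 12.8 and 20.3 against 2.64, 3.69 and 1.99 CPM (2.57 ± 0.41, adjusted p = 0.00318). Cyp26a1, which degrades retinoic acid, was at 0.107 and 0.478 against 40.6, 40.3 and 33.9 CPM (-6.98 ± 1.14, adjusted p = 0.00341, and -6.32 without ES line 1 and -8.42 without ES line 2).

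The genes of 2-cell-like cells, a rare state in ES cultures, were low. Of 13 in the table, 5 passed the filter, through their counts in the ES lines, so that their direction was set by the filter. These 5 were called higher in ES, 3 of them without ES line 1 and 0 without ES line 2. Zscan4c was at 1.55 and 3.53 against 0, 0.205 and 0.0464 CPM (4.93 ± 1.07, adjusted p = 0.00989, and 4.20 without ES line 2, 4.25 without TS line 1 and 6.78 without TS line 2). The call of Zscan4c was lost without ES line 2 (adjusted p = 0.0767). The Zscan4 copies are near-identical, so their counts are uncertain one by one. Of 23 germline genes tested, 9 were higher in the ES lines, 4 were higher in the TS lines and 10 did not pass (6 and 2 without ES line 1, 4 and 3 without ES line 2, 5 and 4 without TS line 1), with a median log2 fold change of 1.67. Dazl, an RNA-binding protein of germ cells, was at 27 and 49.5 against 1.12, 1.52 and 0.603 CPM (5.13 ± 0.77, adjusted p = 0.00249). Tdrd12, of the piRNA pathway, was at 61.8 and 31.2 against 2.27, 1.02 and 0.325 CPM (5.23 ± 0.78, adjusted p = 0.00241, and 6.08 without TS line 1). Hsf2bp, of meiotic recombination, was at 97.5 and 73.3 against 2.1, 1.52 and 1.02 CPM (5.77 ± 0.35, adjusted p = 9.28e-05). Rpl10l, the testis copy of a ribosomal protein gene, was at 90.7 and 65.2 against 0.575, 0.246 and 0.185 CPM (7.77 ± 0.53, adjusted p = 1.30e-04, and 8.45 without TS line 1). The tudor genes Tdrkh and Tdrd7 went the other way, at 0.534 and 1.53 against 22.4, 29.1 and 12.2 CPM (-4.35 ± 0.73, adjusted p = 0.00371, and -5.30 without ES line 2) and 2.14 and 2.34 against 21.4, 24.3 and 34.7 CPM (-3.58 ± 0.44, adjusted p = 0.00114), so that piRNA pathway genes stood on both sides.

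Of 38 FGF pathway members tested, 8 were higher in the ES lines, 12 were higher in the TS lines and 18 did not pass (5 and 7 without ES line 1, 4 and 8 without ES line 2), with a median log2 fold change of -0.05. Of 6 ligands tested, 5 were higher in ES and Fgf15 did not pass, and of 5 receptors tested, 4 were higher in TS and Fgfrl1 did not pass. The shares of the FGF list were 21.1% toward ES, near the 20.0% over all genes tested, and 31.6% toward TS, against 21.3%. Ligands and receptors were grouped after their values were seen. Fgf4, the ligand that sustains TS cells, was at 248 and 246 against 0.115, 0.41 and 0.0464 CPM (10.33 ± 0.55, adjusted p = 5.59e-05, and 11.40 without TS line 2), a 1285-fold difference. Its receptor Fgfr2 was at 1.5 and 0.86 against 218, 134 and 96.5 CPM (-6.99 ± 0.67, adjusted p = 4.66e-04), a 127-fold difference toward TS. Fgfr4 was at 2.67 and 3.92 against 42.8, 70.1 and 28.2 CPM (-3.83 ± 0.48, adjusted p = 0.00119). Fgfr3 was at 0.374 and 0.955 against 10.4, 9.59 and 4.64 CPM (-3.60 ± 0.63, adjusted p = 0.00432, and -4.44 without ES line 2). The 5 ligands with a call, Fgf1, Fgf3, Fgf4, Fgf5 and Fgf17, were all higher in ES and the 4 receptors Fgfr1 to Fgfr4 all higher in TS. Fgf1 had 25 counts in the ES lines against 2 in the TS lines. Fgf1 could not pass the filter through the TS lines, and nor could Fgf4, at 0.41 CPM or less in each of them. The direction of both was open to ES only. Fgf17 lost its call without ES line 2, where its log2 fold change was 3.69 in place of 4.29. Klb, a co-receptor for endocrine FGFs, was on the ES side at low counts, with 16 counts in the ES lines against 3 in the TS lines, 10.9-fold (95% counting interval 3.11 to 58.2) higher in ES. Fgf1, Fgf3, Fgf5, Fgf15, Fgfr1 and Fgfrl1 are named here after their values were seen. Of the downstream genes, Etv5, an ETS target, was at 557 and 548 against 127, 135 and 90.6 CPM (2.23 ± 0.20, adjusted p = 3.71e-04). The inhibitor Spred2 was at 41.5 and 42.9 against 95.4, 125 and 81.4 CPM (-1.25 ± 0.22, adjusted p = 0.00424). Of the kinases of the cascade, Mapk3 (ERK1) was at 45.7 and 55.7 against 40.9, 34.4 and 41.8 CPM without a call (adjusted p = 0.223). Map2k1 (MEK1), which acts above it, was at 136 and 142 against 174, 207 and 216 CPM (adjusted p = 0.121).

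In the Nodal and TGF-beta pathway, 6 were higher in the ES lines, 9 were higher in the TS lines and 13 did not pass (5 and 5 without ES line 1, 6 and 5 without ES line 2), with a median log2 fold change of -0.31, of 28 members tested. The 6 members higher in ES included Gdf3, Tdgf1 and the Lefty genes. Gdf3, a Nodal-type ligand, was at 138 and 96.8 against 0.0575, 0.123 and 0.0927 CPM (10.31 ± 0.37, adjusted p = 1.70e-05). Tdgf1 (Cripto), the Nodal co-receptor, was at 429 and 524 against 0.402, 1.07 and 0.464 CPM (9.54 ± 0.46, adjusted p = 3.81e-05). The feedback inhibitors Lefty1 and Lefty2, which are similar genes, were at 131 and 58.6 against 0.948, 1.48 and 0.232 CPM (6.72 ± 0.67, adjusted p = 5.44e-04, and 6.03 without ES line 1) and 457 and 206 against 2.73, 3.4 and 0.881 CPM (7.13 ± 0.60, adjusted p = 2.88e-04, and 6.44 without ES line 1). ES line 1 was above ES line 2 in both Lefty genes. The TS side held Tgfbr2, the TGF-beta type II receptor, at 4.81 and 5.06 against 20.6, 20.6 and 21.3 CPM (-2.08 ± 0.21, adjusted p = 5.36e-04). Smad3, a signal transducer, was at 29.9 and 25 against 113, 150.4 and 135 CPM (-2.28 ± 0.28, adjusted p = 0.0011). Furin, the convertase that processes Nodal and BMP precursors, was at 44.6 and 29.8 against 130.1, 156 and 160.2 CPM (-2.00 ± 0.23, adjusted p = 9.47e-04). Smad2, which transduces the same signals, was at 45 and 42.5 against 46.2, 51.3 and 65.2 CPM (adjusted p = 0.472).

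Of 28 BMP pathway genes tested, 5 were higher in the ES lines, 14 were higher in the TS lines and 9 did not pass (2 and 11 without ES line 1, 3 and 11 without ES line 2), with a median log2 fold change of -0.85. The ligand Bmp4 was at 58.2 and 84.2 against 60.4, 51.9 and 42.5 CPM without a call (adjusted p = 0.16). Bmp8b was at 0.481 and 0.86 against 183, 151 and 141 CPM (-7.86 ± 0.46, adjusted p = 8.72e-05). Gdf6 was at 0.107 and 0.191 against 92.6, 72.6 and 62 CPM (-8.93 ± 0.74, adjusted p = 2.76e-04). Bmp1, a procollagen protease rather than a ligand, was at 1.6 and 1.58 against 343, 392 and 243 CPM (-7.68 ± 0.59, adjusted p = 2.14e-04). The Id genes, helix-loop-helix inhibitors and targets of BMP, moved in opposite directions. Id2 was at 2.03 and 2.39 against 556, 278 and 309 CPM (-7.43 ± 0.45, adjusted p = 9.28e-05). Id3 was at 70.0 and 86.1 against 6.03, 12.2 and 16.2 CPM (2.77 ± 0.38, adjusted p = 0.00175). Id4 was at 21.6 and 9.6 against 0.402, 0.615 and 0.51 CPM (4.93 ± 0.59, adjusted p = 0.00106, and 4.23 without ES line 1).

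Of 41 WNT pathway genes tested, 10 were higher in the ES lines, 14 were higher in the TS lines and 17 did not pass (7 and 5 without ES line 1, 7 and 6 without ES line 2), with a median log2 fold change of -0.25. Of 9 ligands tested, 6 were higher in TS and 3 (Wnt3a, Wnt5a and Wnt11) did not pass. Wnt7b was at 0.321 and 0.478 against 395, 355 and 379.9 CPM (-9.86 ± 0.28, adjusted p = 8.54e-06), a 926-fold difference. Wnt6 was at 0.695 and 0.908 against 119.9, 58.2 and 92.8 CPM (-6.80 ± 0.53, adjusted p = 2.20e-04). Wnt9a was at 0.641 and 1.1 against 10.9, 18.7 and 27.4 CPM (-4.43 ± 0.58, adjusted p = 0.00143). All 6 ligands with a call (Wnt3, Wnt4, Wnt6, Wnt7b, Wnt9a and Wnt10a) were higher in TS, and those outside the naming rule, with the 3 that did not pass, were added with their values known. Wnt4 had 1 count in the ES lines against 243 in the TS lines, and Wnt10a 2 against 41. Neither could pass the filter through the ES lines, and nor could Wnt7b, at 0.321 and 0.478 CPM there. The direction of these ligands was open to TS only. Targets of the pathway stood on both sides. Axin2, a feedback inhibitor and target of beta-catenin, was at 115 and 106 against 7.7, 13 and 5.19 CPM (3.68 ± 0.36, adjusted p = 5.22e-04). Sp5, a target zinc finger factor, was at 69.1 and 39.1 against 0.115, 0.123 and 0.185 CPM (8.57 ± 0.44, adjusted p = 4.92e-05). Notum, which inactivates WNT proteins, was at 134 and 74.8 against 1.52, 7.87 and 2.5 CPM (4.72 ± 0.73, adjusted p = 0.00268, and 5.71 without TS line 2). Sfrp1, a secreted WNT binder, was at 184 and 149 against 11.4, 15.2 and 9.97 CPM (3.77 ± 0.32, adjusted p = 2.91e-04). Dkk1, a secreted inhibitor and target named after its values were seen, was called higher in TS, at 0.16 and 0.239 against 5.92, 9.22 and 8.62 CPM (adjusted p = 0.00483). The receptor Fzd1 was at 1.18 and 0.955 against 15.1, 14.3 and 19.3 CPM (-3.92 ± 0.38, adjusted p = 4.91e-04). Ctnnb1 (beta-catenin) was at 837 and 790.2 against 843, 972 and 1074 CPM (adjusted p = 0.261).

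Of 22 genes of the LIF pathway tested, 6 were higher in the ES lines, 7 were higher in the TS lines and 9 did not pass (4 and 3 without ES line 1 or ES line 2, 4 and 4 without TS line 2), with a median log2 fold change of -0.22. Lifr, the LIF receptor, was at 80.1 and 65.6 against 4.28, 5.82 and 7.09 CPM (3.67 ± 0.27, adjusted p = 1.93e-04). Its partner Il6st (gp130) was at 145 and 107 against 43.2, 44.1 and 44.1 CPM (1.53 ± 0.18, adjusted p = 9.21e-04). The ligand Lif was on the opposite side, at 9.67 and 7.93 against 33.5, 43 and 28 CPM (-1.98 ± 0.29, adjusted p = 0.00225). Socs2, a feedback inhibitor, was at 92.9 and 105 against 30.7, 21.5 and 16.8 CPM (2.10 ± 0.31, adjusted p = 0.00225). Stat3, the transducer, was at 117 and 126 against 121, 164 and 109 CPM without a call (adjusted p = 0.725). Myc, a target in ES cells, was at 19.4 and 14.5 against 98.3, 76.9 and 132 CPM (-2.60 ± 0.29, adjusted p = 7.56e-04). Junb, an AP-1 subunit, was at 11.2 and 11 against 67.9, 80.8 and 154 CPM (-3.18 ± 0.50, adjusted p = 0.00288). Lifr and Lif thus lay on opposite sides, as did Fgfr2 and Fgf4, with the sides exchanged.

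**Figure D5:**
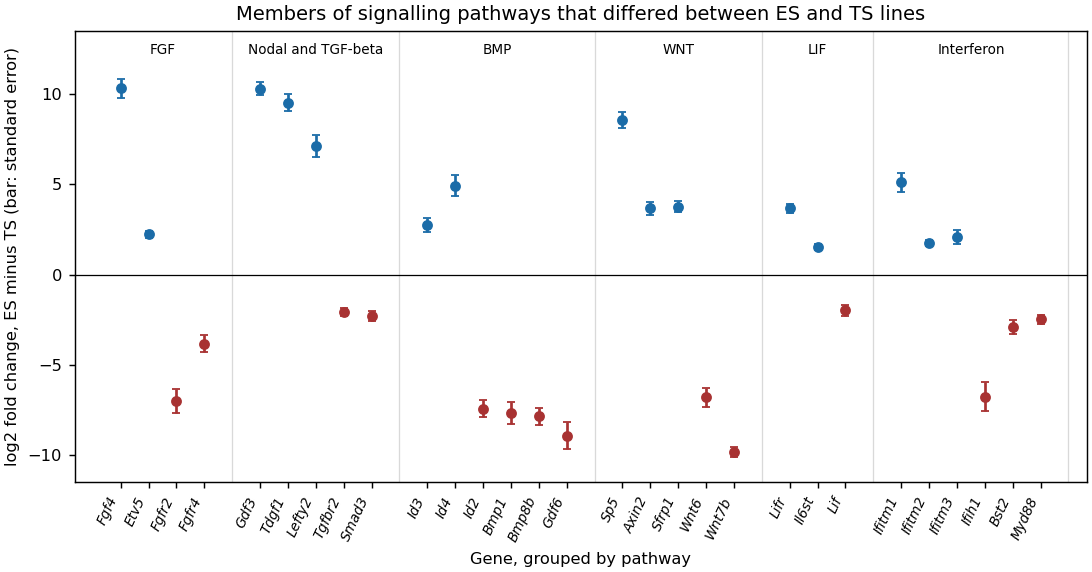
Log2 fold changes (ES minus TS) of signalling genes with a call, grouped by pathway, with bars of 1 standard error. Fgf4 at 10.33 ± 0.55 stands opposite Fgfr2 at -6.99 ± 0.67, Lifr at 3.67 ± 0.27 opposite Lif at -1.98 ± 0.29, and Id3 and Id4 opposite Id2 at -7.43 ± 0.45.

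Hippo pathway genes leaned to TS: of 27 tested, 1 was higher in the ES lines, 14 were higher in the TS lines and 12 did not pass (0 and 9 without ES line 1, 1 and 9 without ES line 2, 2 and 15 without TS line 3), with a median log2 fold change of -0.90. Cyr61 (Ccn1), a target of Yap, was at 6.68 and 6.45 against 118, 114 and 192 CPM (-4.43 ± 0.34, adjusted p = 2.20e-04). The kinase Lats2 was at 14.4 and 9.74 against 46.7, 53 and 41.5 CPM (-1.97 ± 0.24, adjusted p = 0.00114). The upstream scaffolds Amotl2 and Wwc1 (Kibra) were at 129 and 108 against 281, 288 and 369 CPM (-1.40 ± 0.19, adjusted p = 0.00178) and 38.9 and 43 against 179, 203 and 107 CPM (-1.99 ± 0.29, adjusted p = 0.00225). Targets and inhibitors of Yap were therefore both among the genes higher in TS. Nf2 (Merlin) was the 1 member higher in ES, at 292 and 204 against 142, 125 and 86.1 CPM (1.08 ± 0.25, adjusted p = 0.0133). The call of Nf2 was lost without ES line 1 (adjusted p = 0.124). Of 22 Notch genes, 5 were higher in the ES lines, 4 were higher in the TS lines and 13 did not pass (4 and 0 without ES line 1, 4 and 2 without ES line 2), with a median log2 fold change of 0.26. Jag1, a ligand, was at 37.2 and 24.1 against 2.27, 3.89 and 6.26 CPM (2.89 ± 0.47, adjusted p = 0.0033). Hes1, a target repressor, was at 66.3 and 75.6 against 25.7, 27.4 and 22.3 CPM (1.50 ± 0.18, adjusted p = 0.00109). Dtx1, a ubiquitin ligase, was at 48.9 and 61.6 against 6.26, 7.05 and 8.62 CPM (2.92 ± 0.27, adjusted p = 4.24e-04). The receptor Notch1 was at 73.5 and 57.1 against 40.2, 42.6 and 49.9 CPM (adjusted p = 0.282). The Notch shares, 22.7% toward ES and 18.2% toward TS, lay near the 20.0% and 21.3% over all genes tested. Of 17 retinoid genes, 2 were higher in the ES lines, 5 were higher in the TS lines and 10 did not pass (2 and 3 without ES line 1, 0 and 3 without ES line 2, 1 and 5 without TS line 2), with a median log2 fold change of -1.63.

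Of 31 imprinted genes tested, 6 were higher in the ES lines, 10 were higher in the TS lines and 15 did not pass (4 and 5 without ES line 1, 4 and 6 without ES line 2), with a median log2 fold change of -0.76. In the Dlk1-Dio3 cluster the noncoding RNAs Meg3, Rian and Mirg were ES genes: Meg3 was at 105 and 96 against 0.603, 3.53 and 0.464 CPM (6.04 ± 0.89, adjusted p = 0.00225, and 7.54 without TS line 2). Rian was at 149.5 and 177 against 0.46, 3.57 and 1.81 CPM (6.42 ± 0.83, adjusted p = 0.0014, and 7.24 without TS line 2). Mirg was at 14.1 and 18.1 against 0.0287, 0.287 and 0.139 CPM (6.75 ± 0.84, adjusted p = 0.00121, and 7.66 without TS line 2). Dlk1, of the same cluster, was at 0 and 0.334 against 0.172, 1.48 and 22 CPM and did not pass (adjusted p = 0.0864). On the TS side, Cdkn1c (p57), the inhibitor of the cell cycle in giant cells, was at 10.3 and 8.45 against 174, 198 and 1204 CPM (-5.81 ± 1.04, adjusted p = 0.00481, and -4.32 without TS line 3). Peg3, a zinc finger gene, was at 33.4 and 28.7 against 239, 611 and 225 CPM (-3.53 ± 0.51, adjusted p = 0.00214, and -2.89 without TS line 2). Sfmbt2, a polycomb-type gene expressed from the paternal allele in placenta, was at 23 and 11.7 against 341, 473 and 563 CPM (-4.72 ± 0.42, adjusted p = 3.71e-04). Cdkn1c was highest in TS line 3. H19, the partner of Igf2, was at 2.56 and 5.68 against 6.38, 15.2 and 3166 CPM and did not pass (adjusted p = 0.0782), so that Igf2 was high in all TS lines and H19 in TS line 3. Grb10, a growth inhibitor, was at 124 and 101 against 1594, 63.2 and 776 CPM (adjusted p = 0.083), with TS line 2 below the ES lines.

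Among DNA methylation genes (23 tested), 9 were higher in the ES lines, 5 were higher in the TS lines and 9 did not pass (7 and 3 without ES line 1, 7 and 2 without ES line 2), with a median log2 fold change of 0.84. Tet1, a methylcytosine dioxygenase, was at 442 and 432 against 26.7, 33.9 and 19 CPM (4.04 ± 0.33, adjusted p = 2.59e-04). Uhrf1, which brings Dnmt1 to replicated DNA, was at 623 and 580.5 against 174, 186 and 193 CPM (1.71 ± 0.15, adjusted p = 3.13e-04). Trim28, a corepressor of retroelements, was at 1739 and 1766 against 697, 667 and 694 CPM (1.35 ± 0.14, adjusted p = 5.90e-04). Apobec3, an antiviral deaminase, was at 107 and 119 against 25.1, 17 and 13 CPM (2.62 ± 0.30, adjusted p = 9.21e-04). Mbd2, a methyl-CpG reader, was at 13.8 and 11.7 against 29.6, 32.4 and 34.6 CPM (-1.33 ± 0.21, adjusted p = 0.00274). Gadd45g, a stress-response gene, was at 0.321 and 0.716 against 13.8, 22.7 and 13.8 CPM (-4.99 ± 0.82, adjusted p = 0.00341, and -5.69 without ES line 2). Of 33 polycomb and H3K9 genes, 11 were higher in the ES lines, 8 were higher in the TS lines and 14 did not pass (6 and 5 without ES line 1, 7 and 5 without ES line 2), with a median log2 fold change of 0.06, and the split ran within complexes. Ezh2, the H3K27 methyltransferase, was at 139.8 and 141 against 164, 139 and 91.3 CPM without a call (adjusted p = 0.839). Eed, its partner, was at 226 and 224 against 96.1, 88.9 and 70.9 CPM (1.40 ± 0.18, adjusted p = 0.00129). Of the polycomb-like accessory proteins, Mtf2 was at 355 and 287 against 52.1, 54.4 and 31.6 CPM (2.80 ± 0.30, adjusted p = 7.11e-04). Phf19 was at 2.24 and 3.87 against 59.6, 61 and 55.7 CPM (-4.26 ± 0.31, adjusted p = 1.91e-04). Phc1 and Phc2, which are paralogs in the other polycomb complex, were at 329.8 and 385 against 73.1, 49.8 and 47.3 CPM (2.65 ± 0.24, adjusted p = 3.70e-04) and 40.6 and 35.2 against 181, 175 and 146 CPM (-2.15 ± 0.19, adjusted p = 3.82e-04). The paralogs in each of these pairs stood on opposite sides. Cbx8, a chromodomain reader, was at 1.12 and 0.716 against 19.5, 21.2 and 25.1 CPM (-4.57 ± 0.41, adjusted p = 3.71e-04). Kdm3a, an H3K9 demethylase, was at 243 and 229 against 54.2, 55.5 and 31.5 CPM (2.32 ± 0.25, adjusted p = 7.27e-04). Of 29 remodelling genes, 9 were higher in the ES lines, 1 was higher in the TS lines and 19 did not pass (3 and 1 without ES line 1, 3 and 0 without ES line 2, 10 and 2 without TS line 3), with a median log2 fold change of 0.40: Smarcc1 and Actl6a, subunits of the BAF complex, were at 328 and 333 against 167, 188 and 168 CPM (0.92 ± 0.15, adjusted p = 0.00306) and 204 and 179.6 against 78.8, 77.4 and 74.1 CPM (1.32 ± 0.16, adjusted p = 0.0011). Hdac2, a deacetylase, was at 234 and 197 against 89.5, 86.4 and 63.4 CPM (1.43 ± 0.21, adjusted p = 0.00221).

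DNA replication genes leaned to ES by small steps. Of 31 tested, 20 were higher in the ES lines, 2 were higher in the TS lines and 9 did not pass (6 and 1 without ES line 1, 7 and 1 without ES line 2, 20 and 1 without TS line 1), with a median log2 fold change of 0.68. Mcm3, of the replicative helicase, was at 429.9 and 422 against 205, 204 and 238 CPM (0.98 ± 0.16, adjusted p = 0.0031). Pcna, the sliding clamp, was at 358 and 398 against 181, 154 and 213 CPM (1.05 ± 0.18, adjusted p = 0.00402). Pola1, the catalytic subunit of polymerase alpha, was at 224 and 136 against 22, 14.5 and 12.7 CPM (3.45 ± 0.31, adjusted p = 3.86e-04). Pola1 was the widest apart of the 3. It lies on the X chromosome and was higher in ES line 1, labelled female, than in ES line 2, labelled male. Cdc6, a licensing factor, went the other way at 48.7 and 45.5 against 102, 112 and 94.4 CPM (-1.13 ± 0.19, adjusted p = 0.00422). Of 34 cell cycle genes, 10 were higher in the ES lines, 9 were higher in the TS lines and 15 did not pass (3 and 4 without ES line 1, 3 and 3 without ES line 2), with a median log2 fold change of 0.05, and the proliferation marker Mki67 was at 295 and 257 against 296, 375 and 128 CPM (adjusted p = 0.931). Chek1, the checkpoint kinase, was at 70.9 and 66.6 against 30.1, 25.5 and 24.9 CPM (1.36 ± 0.22, adjusted p = 0.00311). Fbxo5 (Emi1), an inhibitor of the anaphase-promoting complex, was at 101 and 101 against 56.5, 49.8 and 43.1 CPM (1.02 ± 0.17, adjusted p = 0.00364). Ccne1 (cyclin E1) was at 80.7 and 73.8 against 229, 169.5 and 192 CPM (-1.35 ± 0.19, adjusted p = 0.00187).

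Of 29 Bcl2 family and p53 genes, 3 were higher in the ES lines, 10 were higher in the TS lines and 16 did not pass (2 and 5 without ES line 1, 1 and 5 without ES line 2, 5 and 10 without TS line 3, 5 and 12 without XEN line 1 or XEN line 2), with a median log2 fold change of -0.45. Both guards and effectors of apoptosis were TS genes: the anti-apoptotic Bcl2l1 was at 36.9 and 32.8 against 127, 129 and 205 CPM (-2.14 ± 0.26, adjusted p = 0.00115). The pro-apoptotic Bok was at 8.82 and 12 against 161, 118 and 76.1 CPM (-3.50 ± 0.43, adjusted p = 0.00116). Bim, an activator of Bax, was at 8.33 and 10.4 against 75.3, 90.7 and 63.7 CPM (-3.03 ± 0.30, adjusted p = 5.56e-04). Trp53 (p53) was at 321 and 303 against 233, 202 and 237 CPM (adjusted p = 0.0529). Casp8, the initiator caspase of death receptors, was at 4.33 and 3.73 against 0.259, 0.861 and 0.371 CPM (3.02 ± 0.58, adjusted p = 0.00634, and 3.69 without TS line 2). Of 12 Myc network genes, 2 were higher in the ES lines, 4 were higher in the TS lines and 6 did not pass (1 and 1 without ES line 1, 1 and 2 without ES line 2), with a median log2 fold change of 0.11. Mycn, the paralog of Myc, was at 130.0 and 77.7 against 63.3, 56.9 and 65.2 CPM (adjusted p = 0.179). Mga, a Max partner that represses germline genes, was at 371 and 300.1 against 73.1, 80.1 and 46.9 CPM (2.33 ± 0.32, adjusted p = 0.00174).

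Most metabolic enzymes showed no call. Of 29 glycolysis genes, 5 were higher in the ES lines, 6 were higher in the TS lines and 18 did not pass, with a median log2 fold change of -0.06. Both counts moved by over 1.5 times without ES line 1 or ES line 2, and were 3 and 5 without TS line 1. The enolase gene Eno1 was called higher in ES, and that call was lost without ES line 1, ES line 2, TS line 1 or TS line 2. The glucose transporters exchanged sides, with Slc2a1 (Glut1) at 257 and 221 against 844, 940.1 and 2665 CPM (-2.63 ± 0.54, adjusted p = 0.00833, and -1.90 without TS line 3). Slc2a3 (Glut3) was at 1589.7 and 1639 against 361, 201 and 662 CPM (1.99 ± 0.48, adjusted p = 0.0154). The call of Slc2a1 was lost without ES line 1 (adjusted p = 0.0619) or ES line 2 (adjusted p = 0.067), and that of Slc2a3 without ES line 1 (adjusted p = 0.0702) or ES line 2 (adjusted p = 0.0673). Hk1, the first kinase of the pathway, was at 76.2 and 108 against 343, 490.0 and 267 CPM (-1.99 ± 0.30, adjusted p = 0.00254). The lactate exporter Slc16a3 (Mct4) was at 44.6 and 63.5 against 274, 265 and 307 CPM (-2.38 ± 0.23, adjusted p = 4.66e-04). Pkm was at 1914 and 2096 against 1794, 1977 and 1995 CPM (adjusted p = 0.754). Of 26 one-carbon and polyamine genes, 9 were higher in the ES lines, 1 was higher in the TS lines and 16 did not pass (4 and 1 without ES line 1 or ES line 2, 5 and 1 without TS line 1), with a median log2 fold change of 0.34. Tdh, the threonine dehydrogenase on which mouse ES cells depend, was at 682 and 669 against 0.144, 0.492 and 0.325 CPM (11.09 ± 0.82, adjusted p = 1.93e-04), a 2175-fold difference. Amt, of the glycine cleavage system, was at 93.3 and 79.2 against 32.2, 30.3 and 25.6 CPM (1.55 ± 0.20, adjusted p = 0.00147). The polyamine genes Sms and Sat1 were at 117 and 60.0 against 13.7, 12.3 and 12.4 CPM (2.78 ± 0.30, adjusted p = 7.27e-04) and 117 and 83.9 against 17.8, 18.9 and 24.3 CPM (2.31 ± 0.25, adjusted p = 6.91e-04). Odc1, the first step of that pathway, was at 259 and 277 against 516, 612 and 507 CPM (-1.02 ± 0.16, adjusted p = 0.00291). Of 25 cholesterol genes, 1 was higher in the ES lines, 6 were higher in the TS lines and 18 did not pass (0 and 0 without ES line 1, 1 and 1 without ES line 2, 1 and 3 without TS line 1, 0 and 4 without TS line 2, 2 and 8 without XEN line 2), with a median log2 fold change of -0.32. Of 38 respiratory chain genes, 2 were higher in the ES lines, 4 were higher in the TS lines and 32 did not pass (1 and 0 without ES line 1 or ES line 2, 1 and 4 without TS line 1, 1 and 5 without TS line 2), with a median log2 fold change of -0.11. Of 51 ribosomal protein genes, 11 were higher in the ES lines, 1 was higher in the TS lines and 39 did not pass (2 and 0 without ES line 1, 3 and 1 without ES line 2, 5 and 1 without TS line 1 or TS line 2, 13 and 2 without XEN line 1 or XEN line 2), with a median log2 fold change of 0.18. These shares lie near or below those over all genes tested, apart from one-carbon genes toward ES. Rpl39l, a paralog of Rpl39, was at 10.7 and 15.3 against 0.172, 0.205 and 0.139 CPM (6.19 ± 0.56, adjusted p = 3.81e-04).

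By number of calls, antigen presentation and interferon genes leaned to TS. Of 19 antigen presentation genes tested, 14 were higher in the TS lines and 5 did not pass (0 and 5 without ES line 1, 0 and 3 without ES line 2), with a median log2 fold change of -2.91. B2m, the light chain of class I molecules, was at 17 and 27.6 against 125, 82.1 and 169 CPM (-2.49 ± 0.36, adjusted p = 0.00216). Psmb8, an immunoproteasome subunit, was at 0.0534 and 0.143 against 25.2, 28.4 and 35.2 CPM (-8.14 ± 0.55, adjusted p = 1.31e-04, and -8.99 without ES line 2). Erap1, a peptide-trimming protease, was at 6.52 and 6.3 against 45, 49.5 and 27 CPM (-2.66 ± 0.34, adjusted p = 0.00132). The class I heavy chain genes are similar in sequence, so their counts are uncertain one by one. Of 33 interferon genes tested, 5 were higher in the ES lines, 15 were higher in the TS lines and 13 did not pass (3 and 6 without ES line 1, 4 and 5 without ES line 2), with a median log2 fold change of -1.30. The summed CPM of the interferon list overlapped between the groups, at 948.4 and 954.9 in the ES lines against 853.7, 952 and 1362 in the TS lines. The 4 tested members at 0 in ES, Isg15 among them, could not pass the filter through the ES lines and were open to TS only. Isg15, a ubiquitin-like interferon-induced protein, had 0 counts in both ES lines and 6.9, 18.4 and 63.1 CPM in the TS lines, at least 336-fold higher in TS, or at least 154-fold without TS line 3. Ifih1 (Mda5), a sensor of double-stranded RNA, was at 0.267 and 0.143 against 11.5, 30.2 and 26.1 CPM (-6.76 ± 0.80, adjusted p = 0.00101). Bst2 (tetherin) was at 20.2 and 45.2 against 207, 214 and 316 CPM (-2.91 ± 0.40, adjusted p = 0.00175, and -3.60 without ES line 2). Myd88, an adaptor of Toll-like receptors, was at 7.16 and 9.41 against 38.7, 42.8 and 58.1 CPM (-2.49 ± 0.28, adjusted p = 7.63e-04). The transmembrane restriction factors Ifitm1, Ifitm2 and Ifitm3 went the other way: Ifitm1 was at 53.4 and 85.2 against 2.64, 1.84 and 1.39 CPM (5.13 ± 0.53, adjusted p = 6.10e-04). Ifitm2 was at 254 and 245 against 85.2, 71.7 and 65.3 CPM (1.75 ± 0.18, adjusted p = 5.80e-04). Ifitm3 was at 121 and 104 against 26.3, 23 and 31.4 CPM (2.07 ± 0.39, adjusted p = 0.00589). The receptor gene Ifnar1 was at 48.3 and 44.2 against 49.2, 44.6 and 45.9 CPM (adjusted p = 0.972). The transducer Stat2 was at 39.7 and 50.5 against 21.5, 41.2 and 66.7 CPM (adjusted p = 0.92).

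The promoters of these genes are shown because the interferon list holds members on both sides. The windows are the 250 bases before the RefSeq gene start (GRCm38.p6, whereas the counts rest on mm9), 5′ to 3′ on the gene's strand, and capitals mark each match to the core of the interferon-stimulated response element. Its letters are GAAA, any pair of bases and GAAA, read on both strands, so that the other strand shows TTTC, a pair and TTTC, and matches can overlap. Isg15 lies at chr4:156200819-156201068, minus strand, Ifit1 at chr19:34640639-34640888, plus strand, and Ifit3 at chr19:34583279-34583528, plus strand. Bst2 lies at chr8:71537473-71537722, minus strand, and Ifitm2 at chr7:140955962-140956211, minus strand.
Isg15: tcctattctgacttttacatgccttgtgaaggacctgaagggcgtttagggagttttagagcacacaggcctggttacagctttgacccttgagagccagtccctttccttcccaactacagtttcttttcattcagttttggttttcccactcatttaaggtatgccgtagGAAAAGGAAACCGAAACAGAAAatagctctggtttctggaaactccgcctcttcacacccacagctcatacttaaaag
Ifit1: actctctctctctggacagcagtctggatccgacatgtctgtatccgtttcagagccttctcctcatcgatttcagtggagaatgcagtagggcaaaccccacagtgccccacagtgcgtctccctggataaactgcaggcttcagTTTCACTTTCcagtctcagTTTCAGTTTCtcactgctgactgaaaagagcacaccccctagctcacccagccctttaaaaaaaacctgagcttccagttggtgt
Ifit3: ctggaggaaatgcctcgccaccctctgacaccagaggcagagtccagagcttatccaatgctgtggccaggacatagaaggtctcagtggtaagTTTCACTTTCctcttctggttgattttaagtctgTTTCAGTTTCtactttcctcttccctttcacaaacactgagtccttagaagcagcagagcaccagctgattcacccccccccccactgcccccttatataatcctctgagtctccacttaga
Bst2: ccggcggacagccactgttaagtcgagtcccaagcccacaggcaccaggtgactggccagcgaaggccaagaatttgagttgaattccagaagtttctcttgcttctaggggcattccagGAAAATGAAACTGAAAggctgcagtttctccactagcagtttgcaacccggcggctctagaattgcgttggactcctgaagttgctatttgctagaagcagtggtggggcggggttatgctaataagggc
Ifitm2: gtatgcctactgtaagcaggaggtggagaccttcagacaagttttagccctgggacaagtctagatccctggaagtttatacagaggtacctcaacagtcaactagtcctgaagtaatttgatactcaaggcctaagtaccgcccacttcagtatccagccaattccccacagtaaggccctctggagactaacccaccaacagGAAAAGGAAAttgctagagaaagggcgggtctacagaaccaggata
The matches begin 78, 72 and 66 bases before the start in Isg15, where they overlap, 104 and 85 in Ifit1, 156 and 122 in Ifit3, 130 and 124 in Bst2, where they overlap, and 46 in Ifitm2. Of the interferon genes with a window, 6 of 13 higher in TS held a match (Isg15, Ifit1, Ifit3, Rsad2, Bst2 and Myd88), 1 of 4 higher in ES (Ifitm2) and 2 of 10 without a call (Stat2 and Oas1a), against 2.35% of the 10140 genes tested that have a window and 3.04% of all 27025 promoters. Ifit1 and Ifit3 both had 0 counts in the ES lines and at most 3.48 and 0.974 CPM in a TS line. A match is a description of letters and does not show a bound factor.

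Windows of the pluripotency and trophoblast regulators were read in the same way for the octamer ATGCAAAT, the letters bound by POU-domain factors such as Oct4, on both strands. Zfp42, which was higher in ES, and Cdx2, which was higher in TS, each held 1 match, in capitals below, 186 and 147 bases before the start. Elf3 and Tspan8 of the trophoblast list, both without a call, held 1 match each. Zfp42 lies at chr8:43307010-43307259, minus strand, and Cdx2 at chr5:147307250-147307499, minus strand.
Zfp42: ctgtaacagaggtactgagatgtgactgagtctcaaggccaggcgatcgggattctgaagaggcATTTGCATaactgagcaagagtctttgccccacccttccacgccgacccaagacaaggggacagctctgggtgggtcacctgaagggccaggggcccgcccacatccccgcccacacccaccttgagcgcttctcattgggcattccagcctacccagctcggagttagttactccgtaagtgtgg
Cdx2: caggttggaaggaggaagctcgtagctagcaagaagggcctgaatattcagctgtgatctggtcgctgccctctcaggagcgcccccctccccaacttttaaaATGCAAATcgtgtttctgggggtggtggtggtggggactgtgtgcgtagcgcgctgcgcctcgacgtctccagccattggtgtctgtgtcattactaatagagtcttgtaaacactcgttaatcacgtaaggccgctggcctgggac
The octamer stood in 1.48% of windows of genes at least 4-fold higher in ES, 1.39% of those at least 4-fold higher in TS and 1.37% of all genes tested, so that the shares hardly differed. CpG content differed more: at least 10 CpG stood in 46.4% of windows of the genes at least 4-fold higher in ES (median 8), 62.9% of those at least 4-fold higher in TS (median 13) and 72.1% of all genes tested (median 15). Windows matched 69.0% of the genes tested, and these shares are descriptions with no test.

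Of 33 lysosome, protease and serpin genes tested, 4 were higher in the ES lines, 19 were higher in the TS lines and 10 did not pass (1 and 8 without ES line 1, 1 and 11 without ES line 2, 2 and 18 without TS line 2), with a median log2 fold change of -2.05. Mmp9, the gelatinase of invading trophoblast, was at 0.214 and 1 against 165, 285 and 163 CPM (-8.35 ± 0.63, adjusted p = 2.09e-04, and -7.67 without ES line 1 and -9.87 without ES line 2). Plaur, the urokinase receptor, was at 8.6 and 12.6 against 89.4, 114 and 129.7 CPM (-3.39 ± 0.30, adjusted p = 3.49e-04). Serpinh1 (Hsp47), the collagen chaperone, was at 59.6 and 35.7 against 265, 405 and 353 CPM (-2.84 ± 0.30, adjusted p = 6.29e-04). Ctsf, a lysosomal cathepsin, was at 7 and 5.35 against 50.9, 35.8 and 32.3 CPM (-2.68 ± 0.29, adjusted p = 7.24e-04). Serpinb9e, of a placental serpin cluster with similar copies, had 0 counts in ES and 4.83, 10.4 and 283 CPM in TS lines 1 to 3, without a call (adjusted p = 0.0565). Of 29 transport genes, 6 were higher in the ES lines, 8 were higher in the TS lines and 15 did not pass (4 and 4 without ES line 1, 3 and 5 without ES line 2), with a median log2 fold change of -0.29. The transport shares were 20.7% toward ES, near the 20.0% over all genes tested, and 27.6% toward TS, against 21.3%. Slc7a3, a cationic amino acid transporter, was at 341 and 157 against 0.575, 1.19 and 0.232 CPM (8.53 ± 0.64, adjusted p = 2.09e-04, and 7.86 without ES line 1 and 9.19 without TS line 2). Atp1b1, a sodium pump subunit, was at 214 and 229 against 77.9, 56.3 and 71.9 CPM (1.69 ± 0.29, adjusted p = 0.00398). Slc38a4, an imprinted placental amino acid transporter, was at 6.89 and 8.45 against 403, 337 and 774 CPM (-6.04 ± 0.46, adjusted p = 2.18e-04). Slc40a1 (ferroportin), the iron exporter, was at 1.34 and 3.34 against 28.3, 90.6 and 67.5 CPM (-4.72 ± 0.65, adjusted p = 0.00179, and -5.53 without ES line 2).

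Splicing and RNA-binding genes also split. Of 25 tested, 10 were higher in the ES lines, 4 were higher in the TS lines and 11 did not pass (3 and 3 without ES line 1, 4 and 4 without ES line 2), with a median log2 fold change of 0.51. The epithelial splicing factors were TS genes, with Esrp2 at 6.25 and 4.73 against 30.5, 38.1 and 79.2 CPM (-3.16 ± 0.47, adjusted p = 0.00245). Esrp1 was at 5.5 and 8.55 against 62.8, 35.8 and 94.8 CPM (-3.20 ± 0.63, adjusted p = 0.00679). The call of Esrp1 was lost without ES line 1 (adjusted p = 0.0675). Rbm47, another epithelial RNA-binding protein, was at 5.82 and 7.59 against 51.9, 69.5 and 89.7 CPM (-3.39 ± 0.31, adjusted p = 4.01e-04). Mbnl2, a muscleblind splicing factor, was at 14.4 and 21.7 against 144, 178 and 147 CPM (-3.11 ± 0.40, adjusted p = 0.00132). On the ES side, Ptbp2, the neural paralog of Ptbp1, was at 57.6 and 53.5 against 9.42, 9.43 and 6.31 CPM (2.73 ± 0.24, adjusted p = 3.63e-04). Elavl2, an AU-rich element binder, was at 26.2 and 32.9 against 4.05, 2.3 and 2.04 CPM (3.39 ± 0.38, adjusted p = 7.80e-04). Igf2bp2, an mRNA-stabilising protein, was at 218 and 203 against 80.9, 77.4 and 66.6 CPM (1.49 ± 0.25, adjusted p = 0.00363). Ptbp1 itself was at 640.0 and 617 against 423, 427 and 521 CPM (adjusted p = 0.0507). Of 13 sex-linked genes tested, 1 was higher in the ES lines, 3 were higher in the TS lines and 9 did not pass (2 and 0 without ES line 2, 4 and 2 without TS line 3, 2 and 3 without XEN line 1 or XEN line 2), with a median log2 fold change of 0.51. Xist, the RNA that coats the inactive X chromosome, was at 16.6 and 6.97 against 268, 420.2 and 55.8 CPM (-4.40 ± 0.90, adjusted p = 0.00803, and -5.15 without ES line 1 and -3.76 without TS line 2). The call of Xist was lost without ES line 2 (adjusted p = 0.0641), and the TS line labelled male had the lowest TS value. Sex was not balanced between the groups, and with a sex term in the fit 5990 genes were called.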

How the data were processed

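RNA-seq libraries of cultured mouse ES, TS and XEN lines were made with the Illumina TruSeq RNA kit from RNA purified with the Absolutely RNA Miniprep kit, per the labels' protocols. The authors deposited raw whole-number counts per gene for each library. TopHat 1.3.1, edgeR and the mm9 build appear in the submitters' processing notes. Which program counted reads, on which annotation and whether by strand, is not given in the sources read here, so overlapping and antisense genes, and genes with near-identical copies, are uncertain. The embryo libraries, made with another kit, were not used.

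The 2 libraries of each line were summed, because they come from the same line. The 7 lines (2 ES, 3 TS, 2 XEN, the XEN lines only to share the estimate of spread) were filtered with filterByExpr, scaled with TMM and fitted with edgeR 4.0.16 in R 4.3.3 (robust quasi-likelihood fit and test), with Benjamini-Hochberg adjustment over all 14687 genes tested and a threshold of 0.05. A standard error is the log2 fold change over the root of the test's F statistic. CPM use the scaled library sizes. Where a group had 0 counts, the fold is a bound against 3 counts over that group, and with 1 to 3 counts the ratio is given with an exact 95% interval, which covers counting error only. With 2 against 3 lines an exact permutation test of a single value cannot pass 0.05. On simulated counts with known changes 4 of 67 genes set 2-fold apart were called, as were 44 of 67 at 4-fold and 66 of 66 at 16-fold, beside 5 unchanged genes.

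The members, gene lists and tests were chosen with earlier results of these data known. Named genes were 11 fixed marker genes, the 10 genes with the largest change each way, a mean log2 CPM of at least 5 and no overlap of lines (predicted genes and pseudogenes left out), and up to 4 called members of each list each way by smallest p. Uncalled members were named as values only. Of the listed genes, 6 are not analysed here. Alternatives were other scalings, filters, DESeq2 1.42.0, limma 3.58.1 (voom), single technical replicates, a sex term, a replicate block and each line left out. The numbers of the lines did not pair them: deviations of equally numbered ES and TS lines correlated at -0.0321 and -0.0305. Promoter windows were matched to genes by symbol.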

Additional observations from a re-analysis of the deposited data

How the results depend on the processing

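The number of genes called was 5138 to 6776 under other scalings, filters, tests, sample sets and a sex term, 5169 and 4210 with only technical replicate 1 or 2, and at most 1 gene called in the main analysis changed sign under any of them. Under the stricter filter of 1 CPM in 3 lines, 698 genes were at least 4-fold higher in ES in place of 1373, with fewer genes tested (12799). That filter left no gene of the 2-cell list, so its median has no value there. Leaving out 1 line at a time gave 2429 to 6233 genes called in all, 1190 to 3025 higher in ES, 1239 to 3212 higher in TS, 1690 to 3093 at least 4-fold apart, 831 to 1466 of these toward ES and 859 to 1627 toward TS. The lowest values came without ES line 1, and without ES line 2 the counts were 2827, 1439, 1388, 1934 and, toward TS at 4-fold, 980. Without an ES line, 1 ES line remains, and fewer samples enter the fit. With the line number as a replicate block 4941 genes were called, 4633 of them shared with the main analysis; ES and TS lines with the same number come from separate lines and share only a number. Of 268 named genes with a call, 182 kept it under every alternative that tested them (168 under all 19, the other 14 under 17 or 18, since the gene was not tested in the rest), 86 lost it under at least 1 and none changed direction. Of 82 list counts, 48 and 46 moved by over 1.5 times without ES line 1 or 2, 6 to 10 without a TS line and 4 or 5 without a XEN line. Setting genes at 0 in a group to their bound moved the median of 3 of the 11 lists that hold such genes.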
